A study of Mus musculus with 48 samples.

Results

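The 116 protein-coding genes described here had more messenger RNA in the cerebella of mice trained on a rotarod than in the cerebella of mice at rest, and were not among the genes that the authors' deposited table lists for loss of Chd4, an ATPase that remodels nucleosomes. A rotarod is a turning rod that a mouse learns to stay on. The compared groups were 4 wild-type (WT) cerebella after rotarod training and 4 WT cerebella of home cage mice, labelled rest, all from postnatal days 27 to 28. The labels name no allele or agent in either group. The Chd4 table, from 4 cerebella with a conditional knockout of Chd4 (cKO) and 4 WT cerebella of the same age, served only to leave genes out. Neither the labels nor the design text give the promoter that drives the knockout, the length of training or the time between training and dissection. They do not say that each sample came from a separate animal, so the spread between samples may in part be technical.

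The members were chosen by their own rotarod and rest values, so these values are a description of the selected genes and were not tested. The authors' deposited table of rotarod against rest lists 908 genes at an adjusted p under 0.05 in their test (edgeR, per the submitters' processing notes), which is 3.38% of about 26900 features tested. Of these, 555 were higher after training (2.06% of the features tested) and 353 were lower. Among the 908 genes, 812 were protein coding, 510 of those were absent from the Chd4 table, and 302 of those were higher after training. A mean difference of at least 0.5 on the log2 scale left 133 genes. Leaving out 11 named genes and 9 gene families that begin with a shared symbol removed 17 more and gave the 116 members. The transcription factor gene Cebpd, at 1.67, met the other conditions but is not marked protein coding in the deposited table. It is therefore not a member. The authors' deposited Chd4 table lists 5508 genes, 20.3% of about 27100 features tested, and absence from it does not show that a gene was unaffected by Chd4 loss. The genes just inside the limit of 0.5 were Ppp1r13l, an inhibitor of p53 family proteins, at 0.52, the insulin signalling adaptor Irs2 at 0.51 and the RNA polymerase III subunit Polr3e at 0.50. Those just outside it were the receptor gene Notch4 at 0.499, the choline kinase gene Chka at 0.49 and the co-chaperone gene Ahsa2 at 0.49.

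When neurons fire or cells meet a growth factor, kinase signalling to factors such as CREB and serum response factor switches on immediate early genes within minutes, before any new protein is made. Many of these genes encode transcription factors such as those of the AP-1 and Egr families, and others encode secreted factors and inhibitors that shut the same signalling down again. Physical effort and stress also release glucocorticoid hormones, whose receptor acts directly on genes such as Fkbp5 and Ddit4. In the cerebellum, firing of granule neurons and Purkinje cells during motor learning is a setting in which such responses have been studied.

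Levels are given in log2 CPM, read counts scaled to the library's size, with rotarod libraries in the order of their column numbers 3, 4, 7 and 8 and rest libraries in the order 1, 2, 5 and 6. These numbers match no sample title, so a library is known by its group alone. The effective depth was 15.5 to 16.7 M reads in the rotarod libraries and 13.7 to 16.7 M reads in the rest libraries. A difference is the mean of the rotarod libraries minus the mean of the rest libraries, ± its standard error (SE) from the spread within both groups (n = 4 each). CPM are not corrected for gene length, so levels are compared within a gene and not between genes. The RNA came from whole cerebellum, in which fewer cells of a type and less RNA per cell cannot be told apart. Most markers of the labelled tissue are not in the table and so have no value here. The granule neuron gene Cbln1 was listed, at 10.05 to 10.35 log2 CPM in rotarod libraries and 10.49 to 10.79 in rest libraries, and no marker of 11 Purkinje cell genes was.

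The members' differences ran from 0.50 to 2.51, with a median of 0.86, beside 0.30 over all 908 listed genes and 0.44 over the 555 that were higher. In fold terms, 38 members were at least 2-fold higher after training and 19 were under 1.5-fold. In 101 of the 116 members (87.1%) every rotarod library lay above every rest library, beside 771 of the 908 listed genes (84.9%) whose groups did not overlap. The share among the members was thus close to that of the whole list, and the choice of members on this contrast favours it. Among the 15 members whose groups did overlap were the transcription factor gene Maff, the matricellular gene Ctgf and the Wnt receptor gene Fzd4. Members rested on fewer reads than the rest of the table, with a median level of 2.20 log2 CPM (from -2.46 to 7.42) beside 4.44 over all listed genes, and 18 of them had under 100 reads over the 8 libraries. The median SD within a group was 0.19 for rotarod and 0.26 for rest libraries, and the rotarod SD was the larger in 45 members.

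**Figure D1:**
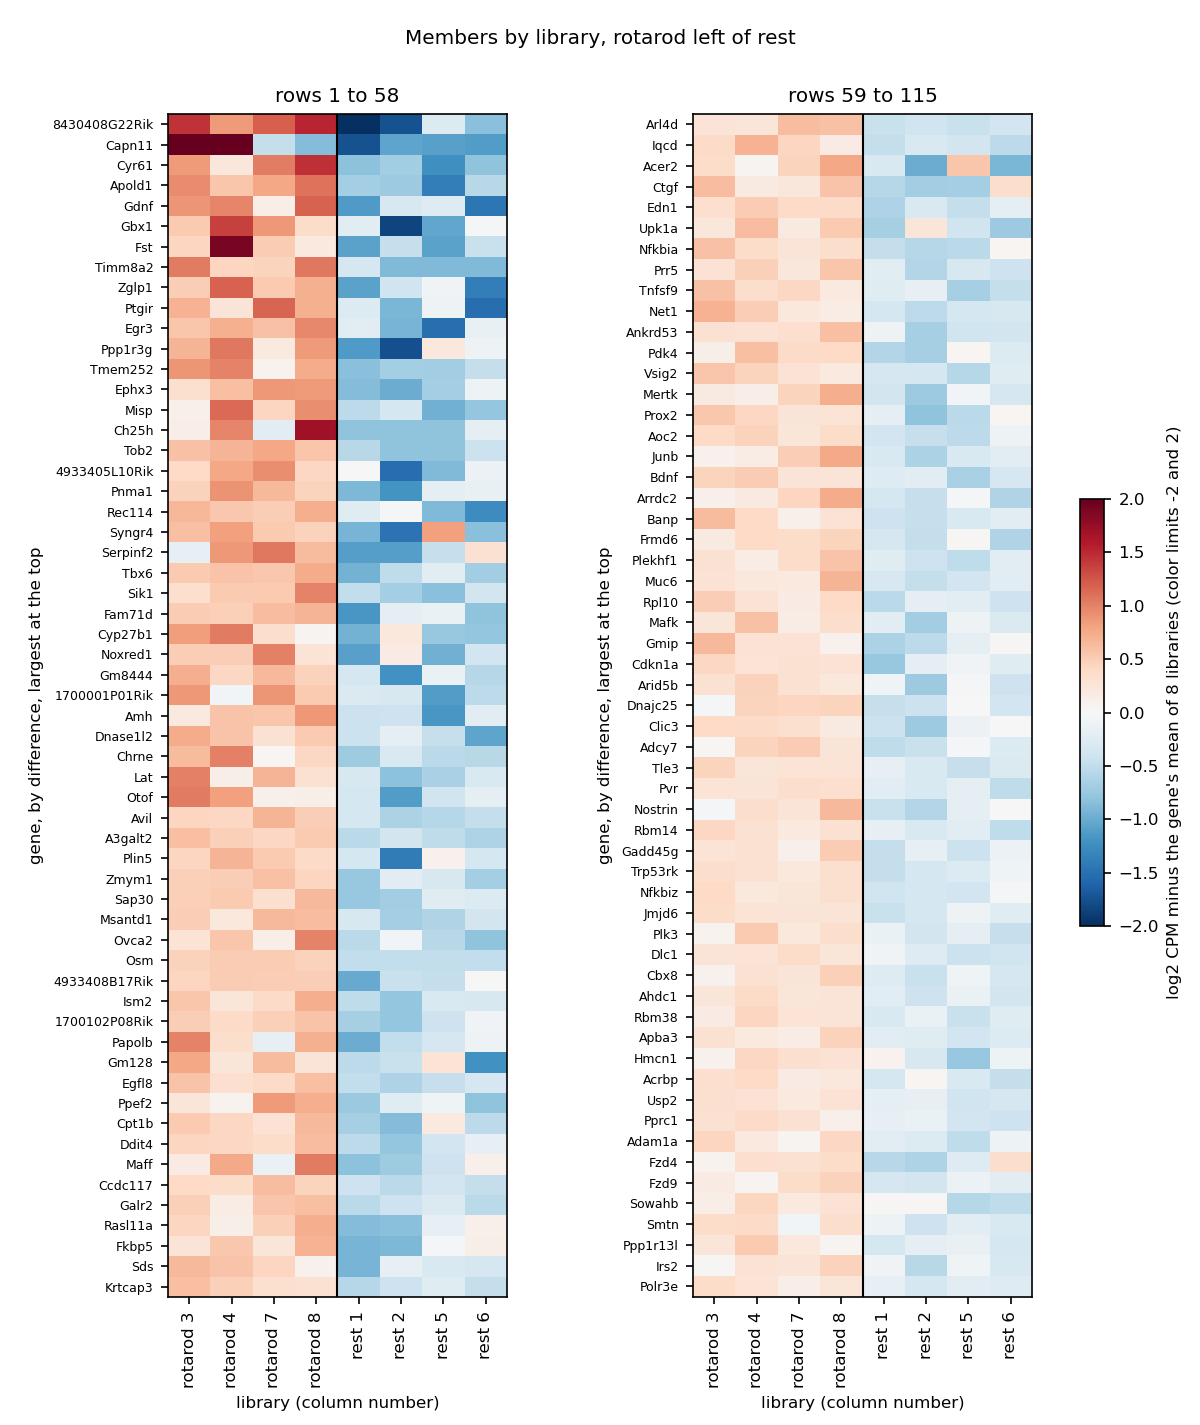
Heat map of 115 of the 116 members by library, as log2 CPM minus the gene's mean over the 8 libraries, with the rotarod libraries left of the rest libraries and the genes sorted by difference. Differences span 2.51 at the top left to 0.50 at the bottom right, and the color limits cut off the values of Capn11 in rotarod libraries 3 and 4 and of 8430408G22Rik in rest library 1.

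**Figure D2:**
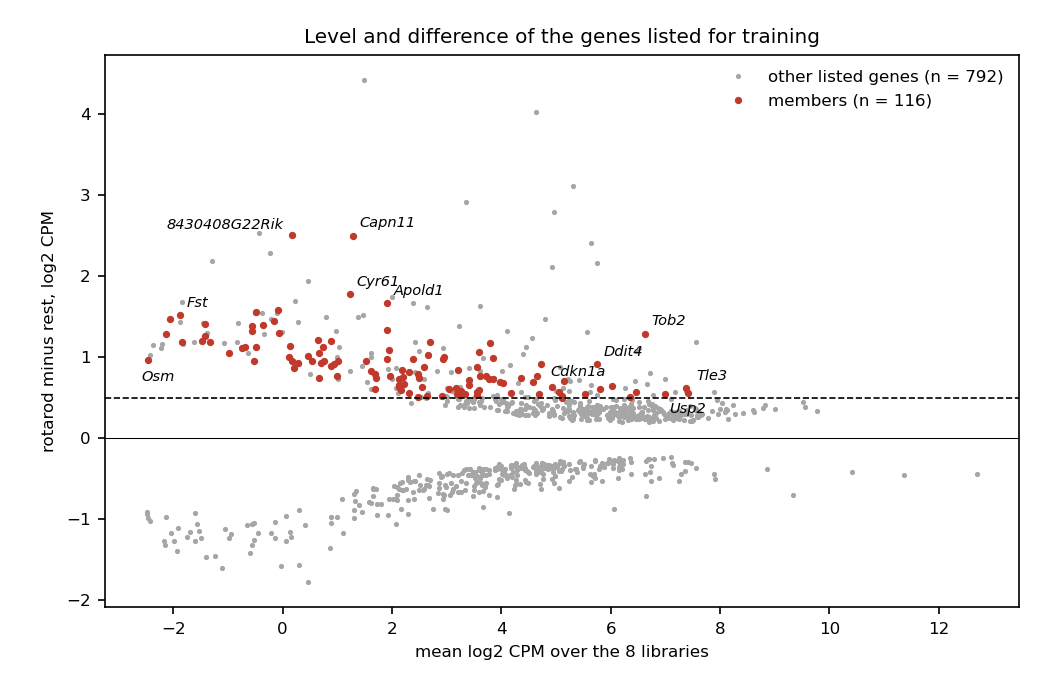
Difference (rotarod minus rest, log2 CPM) against mean level (log2 CPM over 8 libraries) for the 116 members in red and the other 792 listed genes in grey, with the limit of 0.5 as a dashed line. Large differences among the members sit mostly at low levels, and Tob2 at 1.29 and Ddit4 at 0.92 are members with large differences at higher levels.

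Among 18 members that encode regulators of transcription and chromatin, a group formed after the values were seen, the differences ran from 0.50 to 1.56 with a median of 0.69, and the groups did not overlap in 17. Such counts, here and in the role groups below, stand beside 84.9% of all 908 listed genes. The members were chosen on this contrast, so the counts are no result about a role. Junb, an AP-1 subunit that pairs with Fos proteins, had 3.85, 3.92, 4.25 and 4.52 log2 CPM in rotarod libraries, against 3.46, 3.13, 3.47 and 3.53 in rest libraries. The rest libraries lay close together apart from library 2, rotarod libraries 7 and 8 were the highest, and the groups did not overlap. The difference of Junb was 0.74 ± 0.18. Egr3, a zinc finger factor of the early growth response family, had 0.20, 0.35, 0.22 and 0.61 log2 CPM in rotarod libraries, against -0.58, -1.30, -1.86 and -0.51 in rest libraries. All 4 rotarod libraries were above all 4 rest libraries, and the rest libraries varied more, on a total of 74 reads after training and 23 at rest.

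Small Maf proteins lack a transactivation domain and bind DNA with partners such as the Nrf and Bach factors. Maff had 1.11, 1.70, 0.81 and 1.98 log2 CPM in rotarod libraries, against 0.12, 0.23, 0.53 and 1.04 in rest libraries, a difference of 0.92 ± 0.34. Rotarod library 7 lay below rest library 6, so the groups overlapped. The second small Maf member, Mafk, had 2.36, 2.71, 2.28 and 2.48 log2 CPM in rotarod libraries, against 1.89, 1.43, 2.02 and 1.83 in rest libraries, with no overlap and a difference of 0.66 ± 0.16.

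Tbx6, a T-box factor best known from the embryonic mesoderm, had 3.22, 3.27, 3.23 and 3.44 log2 CPM in rotarod libraries, against 1.75, 2.19, 2.46 and 1.997 in rest libraries. The rotarod libraries were within a narrow range that lay above every rest library, and the difference was 1.19 ± 0.16, or 2.28-fold. Sap30, a subunit of the Sin3 histone deacetylase complex, had 3.41, 3.45, 3.26 and 3.58 log2 CPM in rotarod libraries, against 2.17, 2.24, 2.69 and 2.67 in rest libraries. Rest libraries 5 and 6 were above rest libraries 1 and 2, still below all rotarod libraries, and the difference was 0.99 ± 0.15. Tle3, a Groucho family corepressor, averaged 7.69 ± 0.09 log2 CPM in rotarod libraries and 7.07 ± 0.12 in rest libraries (SD, n = 4 each). Cbx8, a chromodomain subunit of Polycomb complexes, had 4.27, 4.48, 4.44 and 4.67 log2 CPM in rotarod libraries, against 3.92, 3.74, 4.10 and 3.85 in rest libraries. Its groups did not overlap. The homeobox gene Gbx1 had the largest difference of the group, 1.56 ± 0.47, at low levels that ran from -0.12 to 0.89 in rotarod libraries and from -2.33 to -0.51 in rest libraries. The transcriptional coactivator gene Pprc1, the jumonji gene Jmjd6, the NF-κB regulator gene Nfkbiz, the AT-rich interaction domain gene Arid5b and the matrix attachment protein gene Banp had differences of 0.55, 0.58, 0.59, 0.64 and 0.71.

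A group of 11 members encodes secreted factors and a membrane-bound ligand, Tnfsf9, with a median difference of 0.97 (0.73 to 1.78), and the groups did not overlap in 9 of them. Cyr61, now named Ccn1, encodes a matricellular protein that binds integrins and is a textbook target of serum response factor and YAP. It had 2.09, 1.45, 2.26 and 2.70 log2 CPM in rotarod libraries, against 0.41, 0.53, 0.00 and 0.43 in rest libraries. Every rotarod library was well above every rest library, rotarod library 8 was the highest and rotarod library 4 the lowest of the trained ones, and the difference was 1.78 ± 0.28, or 3.44-fold. Its relative Ctgf, now named Ccn2, had 3.10, 2.67, 2.71 and 3.05 log2 CPM in rotarod libraries, against 1.92, 1.79, 1.80 and 2.84 in rest libraries. Rest library 6 lay within the range of the rotarod libraries, the other 3 rest libraries lay below it, and the difference was 0.79 ± 0.28.

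Bdnf, a neurotrophin whose transcription follows neuronal activity, had 4.28, 4.34, 4.10 and 4.10 log2 CPM in rotarod libraries, against 3.58, 3.63, 3.18 and 3.50 in rest libraries. Both groups were tight, they did not overlap, and the difference was 0.73 ± 0.12, or 1.66-fold. The glial cell line-derived neurotrophic factor gene Gdnf had 0.80, 0.89, 0.05 and 1.09 log2 CPM in rotarod libraries, against -1.22, -0.41, -0.35 and -1.54 in rest libraries. Rotarod library 7 was the lowest trained library and still above the rest libraries, and the difference of 1.59 ± 0.37 rested on 101 reads after training and 26 at rest. Edn1, which encodes the vasoconstrictor endothelin, had 2.03, 2.20, 2.07 and 2.07 log2 CPM in rotarod libraries, against 1.07, 1.39, 1.21 and 1.51 in rest libraries. These groups did not overlap, with a difference of 0.79 ± 0.10.

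Fst, whose product follistatin binds and blocks activin, was counted with 25 reads over the rotarod libraries and 2 over the rest libraries, of which rotarod library 4 alone held 14. The ratio after scaling to depth was 11.4, with an exact 95% interval from 2.85 to 99.5 that covers counting error only. Without rotarod library 4 the ratio was 6.65 (1.45 to 61.7). Fst was chosen on this same contrast, which favours a high ratio, so the intervals are a description and no test. Osm, a cytokine of the interleukin-6 family, had 2 reads in each rotarod library and 0 in every rest library. With the rest group set to a floor of 3 reads, the ratio after scaling to depth was 2.44. That value takes the 8 rotarod reads as exact, so it is not a lower bound. For such genes the deposited log2 values are drawn together by the prior count that the authors added. The anti-Müllerian hormone gene Amh and the tumor necrosis factor family gene Tnfsf9 had differences of 1.10 ± 0.25 and 0.77 ± 0.14 with no overlap.

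Promoter windows, from 250 bases before to 50 after the start of transcription, were found in the RefSeq table (GRCm38.p6, a later build than the mm9 of the deposited files) for 89 members with 105 windows. The stretches below, 100 bases before the start and 20 after, are printed to show the letters behind 2 motif counts, a full cyclic AMP response element (CRE, TGACGTCA) and a TATA box (TATAAA). Capitals mark a full CRE, a TATA box or, in Cbx8, an E-box (CACGTG), each searched on both strands. The shorter TGACG, also counted below, is not marked where it stands outside a full CRE.
Maff, chr15:79347420-79347539, plus strand: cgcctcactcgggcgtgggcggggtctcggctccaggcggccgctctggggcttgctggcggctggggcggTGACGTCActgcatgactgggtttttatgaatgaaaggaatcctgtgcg
Cbx8, chr11:119040894-119041013, minus strand: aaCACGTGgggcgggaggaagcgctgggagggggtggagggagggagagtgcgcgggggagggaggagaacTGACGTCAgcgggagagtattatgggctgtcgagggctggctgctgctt
Arl4d, chr11:101665441-101665560, plus strand: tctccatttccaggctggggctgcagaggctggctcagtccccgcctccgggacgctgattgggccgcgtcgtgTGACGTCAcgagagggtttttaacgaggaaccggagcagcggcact
Ch25h, chr19:34475129-34475248, minus strand: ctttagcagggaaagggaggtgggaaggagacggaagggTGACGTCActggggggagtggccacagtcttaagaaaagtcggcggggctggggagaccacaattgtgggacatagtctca
Cyr61, chr3:145649966-145650085, minus strand: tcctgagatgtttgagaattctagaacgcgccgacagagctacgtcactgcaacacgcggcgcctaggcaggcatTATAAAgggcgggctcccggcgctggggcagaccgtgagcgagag
Apold1, chr6:134981901-134982020, plus strand: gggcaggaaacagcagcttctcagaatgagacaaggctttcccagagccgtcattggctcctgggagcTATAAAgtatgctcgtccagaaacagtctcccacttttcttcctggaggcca
Gadd45g, chr13:51846575-51846694, plus strand: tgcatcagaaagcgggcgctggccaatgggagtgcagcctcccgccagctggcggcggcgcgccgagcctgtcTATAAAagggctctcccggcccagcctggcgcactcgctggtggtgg
Tbx6, chr7:126781383-126781502, plus strand: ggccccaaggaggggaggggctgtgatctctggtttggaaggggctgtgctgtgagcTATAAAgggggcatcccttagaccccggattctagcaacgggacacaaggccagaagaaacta

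The CRE began at position -29 in Maff and Cbx8, -26 in Arl4d and -61 in Ch25h, counted from the start, and these were the 4 member windows that held one (3.81%, beside 1.79% of all 32851 windows in the table). The TATA box began at -25 in Cyr61, -32 in Apold1, -27 in Gadd45g and -43 in Tbx6, among 9 member windows with one (8.57%, beside 13.6% of all windows). It began at 1 in Junb, 20 in Nfkbia and -151 in Ch25h, so the matches were not all shortly before the start. An E-box was in 15 member windows (14.3%, beside 7.15%), those of Fkbp5, Gadd45g, Maff, Mafk, Net1, Irs2, Tle3 and Polr3e among them. The first 5 letters of the CRE, TGACG, which every full CRE also contains, were in 26 member windows (24.8%, beside 20.8%), and an AP-1 site (TGACTCA or TGAGTCA) was in 3 (2.86%, beside 5.20%). No member window held a CArG box (1.63% of all windows), a glucocorticoid response element of AGAACA, 3 bases and TGTTCT (0.00913%) or a heat shock element of GAA, 2 bases, TTC, 2 bases and GAA (0.603%). The member windows were also richer in G and C, with a median of 57.3% beside 52.7%, and held a median of 14 CpG beside 7, whose part in the motif counts was not tested. A match is a run of letters and not a shown binding site.

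A group of 18 members encodes intracellular signalling and growth control proteins, with a median difference of 0.75 (0.51 to 1.29). The groups did not overlap in any of the 18, beside 84.9% of all listed genes without overlap. Tob2, an antiproliferative protein that recruits the deadenylase complex to messenger RNAs, had 7.21, 7.30, 7.39 and 7.18 log2 CPM in rotarod libraries, against 6.08, 5.82, 5.82 and 6.20 in rest libraries. The 2 ranges were narrow and lay 0.98 apart, and the difference was 1.29 ± 0.11, or 2.45-fold. Sik1, a kinase that holds the coactivators of CREB out of the nucleus and is itself switched on by CREB, had 4.12, 4.31, 4.32 and 4.77 log2 CPM in rotarod libraries, against 3.30, 3.12, 2.96 and 3.42 in rest libraries. Rotarod library 8 was the highest, no library overlapped with the other group, and the difference was 1.18 ± 0.17.

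Ddit4, an inhibitor of the growth kinase complex mTORC1 that responds to stress and glucocorticoids, had 6.19, 6.18, 6.13 and 6.37 log2 CPM in rotarod libraries, against 5.23, 4.98, 5.38 and 5.60 in rest libraries. The rotarod libraries were the tighter group and lay above the rest libraries, with a difference of 0.92 ± 0.14. Cdkn1a, the cyclin-dependent kinase inhibitor p21, had 6.44, 6.29, 6.32 and 6.30 log2 CPM in rotarod libraries, against 5.25, 5.81, 5.94 and 5.77 in rest libraries. Rest library 1 was the lowest, the groups did not overlap, and the difference was 0.64 ± 0.16. The growth arrest gene Gadd45g and the stress-responsive Polo-like kinase gene Plk3 had differences of 0.59 ± 0.12 and 0.58 ± 0.12. Their groups were separate too.

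Nfkbia, the inhibitor that keeps NF-κB in the cytoplasm, had 5.24, 5.02, 4.92 and 5.002 log2 CPM in rotarod libraries, against 4.18, 4.09, 4.11 and 4.70 in rest libraries. Rest library 6 stood above the other rest libraries but below all rotarod libraries, and the difference was 0.77 ± 0.16. Fkbp5, a co-chaperone that lowers hormone binding by the glucocorticoid receptor, had 3.82, 4.10, 3.80 and 4.26 log2 CPM in rotarod libraries, against 2.62, 2.66, 3.52 and 3.67 in rest libraries. Rest libraries 5 and 6 were close under the rotarod libraries and rest libraries 1 and 2 far below, and the difference was 0.88 ± 0.30. Arrdc2, an alpha-arrestin gene, had a difference of 0.73 ± 0.19, and Rasl11a, a Ras-like GTPase gene, one of 0.88 ± 0.27 with a gap of 0.01 between the lowest rotarod and the highest rest library.

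Further signalling members act on small GTPases and on the insulin pathway. Arl4d, a small GTPase of the Arf family, had 3.46, 3.45, 3.82 and 3.79 log2 CPM in rotarod libraries, against 2.76, 2.81, 2.76 and 2.82 in rest libraries. Its rest libraries were nearly equal, rotarod libraries 7 and 8 were above 3 and 4, and the difference was 0.85 ± 0.10. The guanine nucleotide exchange factor gene Net1 had a difference of 0.77 ± 0.13, and the GTPase activating protein genes Gmip and Dlc1 had 0.66 ± 0.19 and 0.57 ± 0.09. Irs2 had 6.37, 6.63, 6.60 and 6.81 log2 CPM in rotarod libraries, against 6.27, 5.79, 6.27 and 6.03 in rest libraries, so that its groups were separated by 0.10. The mTORC2 subunit gene Prr5 had a difference of 0.77 ± 0.11. Usp2, a deubiquitinase of clock and cell cycle proteins, averaged 7.26 ± 0.05 log2 CPM in rotarod libraries and 6.71 ± 0.11 in rest libraries (SD, n = 4 each).

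**Figure D3:**
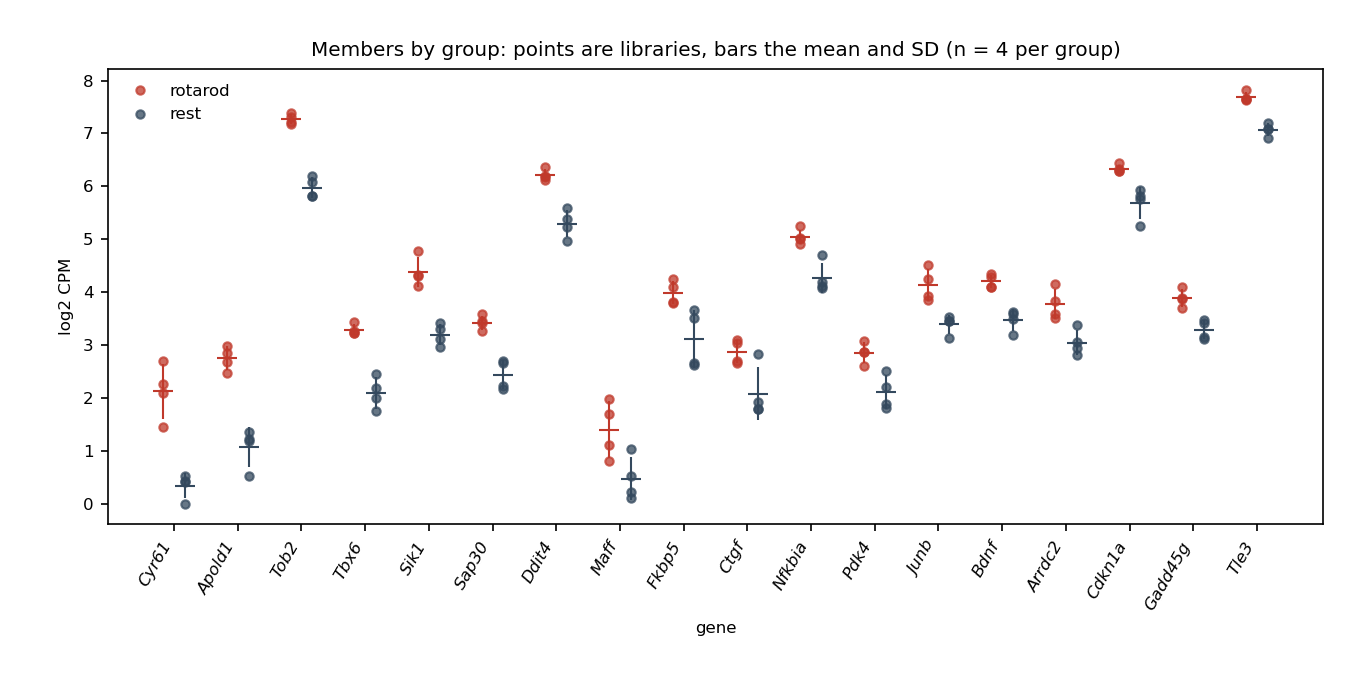
Levels (log2 CPM) of 18 members in the rotarod libraries (red, left of each pair) and the rest libraries (dark blue, right of each pair), with each library as a point and bars for the mean and SD (n = 4 per group). The groups are apart for 16 of these genes, with the widest gap in Apold1, and overlap in Maff and Ctgf.

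A group of 9 members encodes receptors and membrane signalling proteins, with a median difference of 0.74 (0.53 to 1.42), and the groups did not overlap in 8. The prostacyclin receptor gene Ptgir had 32 reads over the rotarod libraries and 7 over the rest libraries. The galanin receptor gene Galr2 had 1.37, 1.03, 1.44 and 1.49 log2 CPM in rotarod libraries, against 0.34, 0.46, 0.60 and 0.35 in rest libraries. Its groups did not overlap, and the difference was 0.89 ± 0.12. Mertk, a receptor tyrosine kinase with which glia take up cell debris, had 4.53, 4.49, 4.79 and 5.08 log2 CPM in rotarod libraries, against 3.98, 3.63, 4.30 and 4.01 in rest libraries. The values were higher in rotarod libraries 7 and 8 and in rest library 5 than in the others of their groups, with no overlap. Of the Frizzled receptors for Wnt proteins, Fzd9 did not overlap (0.53 ± 0.11), and Fzd4 did (0.54 ± 0.23), with rest library 6 at 3.91 log2 CPM among rotarod libraries at 3.63 to 3.93. The adenylyl cyclase gene Adcy7 had a difference of 0.63 ± 0.15.

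A group of 11 members encodes metabolic enzymes and a lipid droplet protein, with a median difference of 1.004 (0.74 to 1.39), and the groups did not overlap in 7. Pdk4, a kinase that shuts off pyruvate dehydrogenase and so favours fat over sugar as fuel, had 2.61, 3.08, 2.87 and 2.88 log2 CPM in rotarod libraries, against 1.89, 1.82, 2.52 and 2.21 in rest libraries. Rest library 5 came within 0.09 of rotarod library 3, and the difference was 0.75 ± 0.19. Cpt1b, which carries fatty acids into mitochondria, and the lipid droplet coat gene Plin5 had differences of 0.93 ± 0.25 and 1.004 ± 0.32 without overlap. A3galt2, a galactosyltransferase gene, had 3.56, 3.44, 3.36 and 3.48 log2 CPM in rotarod libraries, against 2.41, 2.59, 2.45 and 2.34 in rest libraries. These groups were tight and far apart, with a difference of 1.01 ± 0.07. The 4 members of this group that overlapped were the glycogen targeting gene Ppp1r3g, the ceramidase gene Acer2, the vitamin D activating enzyme gene Cyp27b1 and the cholesterol 25-hydroxylase gene Ch25h. Ch25h had 18 reads over the rotarod libraries and 1 over the rest libraries, a ratio of 16.5 with an exact 95% interval from 2.60 to 685. As for Fst, the choice of the gene on this contrast favours a high ratio, and the interval is no test. Rotarod library 8 alone held 10 of the 18 reads, and without it the ratio was 9.83 (1.32 to 436).

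Another 6 members are best known from germ cells, with a median difference of 1.08 (0.545 to 2.50). Capn11, a calpain of the testis, had 5.33, 3.60, 0.81 and 0.43 log2 CPM in rotarod libraries, against -0.46, 0.23, 0.20 and 0.18 in rest libraries. Rotarod libraries 3 and 4 were far above all others, rotarod libraries 7 and 8 lay just above the rest libraries, and the SD was 2.34 in the rotarod group against 0.33 in the rest group. Its difference of 2.50 ± 1.18 therefore rests on 2 libraries, which held 672 and 188 of its 905 rotarod reads, and without rotarod library 3 it was 1.57. The meiotic recombination gene Rec114 had 1.55, 1.42, 1.37 and 1.61 log2 CPM in rotarod libraries, against 0.65, 0.84, 0.00 and -0.37 in rest libraries. Here the trained libraries were close together and the rest libraries 5 and 6 the lowest. The others were Zglp1, also counted with the transcription regulators, the acrosome gene Acrbp, the metalloprotease gene Adam1a and the poly(A) polymerase gene Papolb, and the groups overlapped in Papolb.

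The remaining 44 members fall in none of these groups, with a median difference of 0.95 (0.52 to 2.51), and the groups did not overlap in 38. On the deposited log2 scale 8430408G22Rik, now named Depp1 and known as a target of FoxO factors, had a difference of 2.51, beside 2.50 for Capn11. The prior count lowers such values most in genes of few reads, and in the authors' deposited table the log2 fold changes of Osm (4.04), Ch25h and Timm8a2 (3.54 each) and Fst (2.93) are larger than its 2.92. 8430408G22Rik had 1.61, 1.03, 1.37 and 1.69 log2 CPM in rotarod libraries, against -2.004, -1.56, -0.10 and -0.67 in rest libraries. No library overlapped, rest libraries 1 and 2 were lower than 5 and 6, and the totals were 168 reads after training and 23 at rest. Apold1, an early response gene of vascular endothelium, had 2.86, 2.47, 2.68 and 2.99 log2 CPM in rotarod libraries, against 1.23, 1.19, 0.53 and 1.36 in rest libraries. The groups lay 1.11 apart and rest library 5 was the lowest, with a difference of 1.67 ± 0.22, or 3.19-fold. Otof, which encodes the calcium sensor otoferlin of inner hair cells, had 3.69, 3.47, 2.75 and 2.77 log2 CPM in rotarod libraries, against 2.30, 1.54, 2.26 and 2.46 in rest libraries. The rotarod libraries split into a higher pair, 3 and 4, and a lower pair, 7 and 8, that was still above the rest libraries.

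Among the rest of this group, the deoxyribonuclease gene Dnase1l2 had a difference of 1.07 ± 0.20, the zinc finger gene Zmym1 0.996 ± 0.13, the hydrolase-like gene Ovca2 0.98 ± 0.25 and Ccdc117 0.91 ± 0.07. The groups did not overlap in any of these 4 genes. Ahdc1, an AT-hook gene, averaged 7.70 ± 0.07 log2 CPM in rotarod libraries and 7.14 ± 0.13 in rest libraries (SD, n = 4 each). Timm8a2, a relative of a mitochondrial import chaperone, was counted with 18 reads over the rotarod libraries and 1 over the rest libraries. Rpl10, Timm8a2 and Trp53rk have near-identical copies among which reads may be split, so their values are uncertain. Of 115 members with a position in the reference gene table, 3 had a neighbouring gene on the chromosome that was listed as higher after training (2.61%), beside 6.19% of all listed higher genes.

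The columns were also taken in 2 sets, 1 to 4 and 5 to 8, a division chosen after the data were seen that no label calls a batch. The rotarod minus rest difference was positive within both sets in all 116 members, as it was in all 555 listed higher genes, so this is no mark of the members. Their median difference was 0.94 in columns 1 to 4 and 0.74 in columns 5 to 8, and it was larger in columns 1 to 4 in 70 of 116. Over the 555 listed higher genes the medians were 0.42 and 0.47, with 244 larger in columns 1 to 4. Over the 55 protein-coding genes past the same limit that are also in the Chd4 table, they were 0.74 and 0.87, with 19 larger in columns 1 to 4. These contrasts were not tested. Capn11 differed most between the sets, with 4.58 in columns 1 to 4 and 0.43 in columns 5 to 8. Ppp1r3g had 2.31 and 0.47, Syngr4 1.91 and 0.50, Otof 1.66 and 0.40 and Fkbp5 1.32 and 0.44, each larger in columns 1 to 4. The opposite held for Cyr61, with 1.30 in columns 1 to 4 and 2.26 in columns 5 to 8, and for Rec114, with 0.74 and 1.67. The highest rotarod value was that of library 8 in 41 members, of library 3 in 29, of library 4 in 29 and of library 7 in 17. The highest rest value was that of library 6 in 43, of library 5 in 34, of library 2 in 21 and of library 1 in 18.

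**Figure D4:**
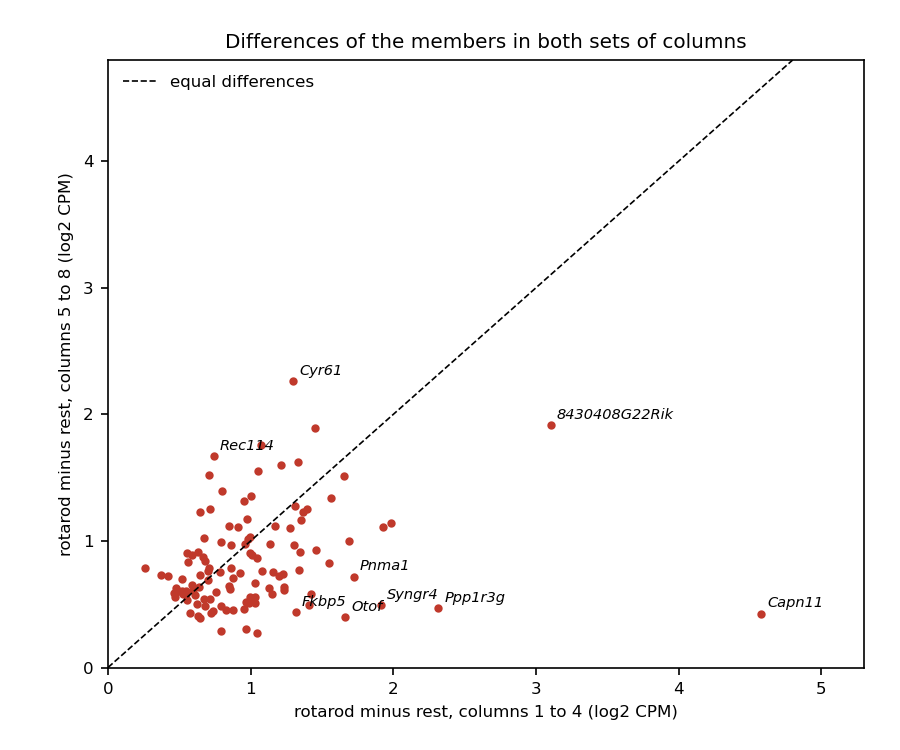
Rotarod minus rest difference (log2 CPM) of each of the 116 members within columns 5 to 8 against that within columns 1 to 4, with a dashed line for equal differences. All points are above 0 on both axes, and Capn11 at 4.58 and 0.43 lies farthest from the line.

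Lists of genes with known roles, written with earlier results of these data known, held 20 of the members. Over all features tested, 2.06% were called higher after training and 20.3% were listed for Chd4 loss. Because of how the lists were written, their counts were not tested against these shares. Of 30 AP-1 and growth factor response transcription factor genes, the authors' test called 15 higher and 2 lower after training, and 13 were not listed. Junb, Egr3, Maff and Mafk were members, and 9 of the 15 are also in the Chd4 table. Of 37 genes in a list headed feedback inhibitors of kinase and receptor signalling, 14 were called higher and none lower. Sik1, Nfkbia, Arrdc2, Rasl11a and Plk3 were members, and the other 9 are in the Chd4 table as well. The heading is loose, as the list also holds the Ras-like GTPase gene Rasl11a and the stress-responsive kinase gene Plk3. Of 26 growth arrest and stress response genes, 10 were called higher and none lower, and Tob2, Ddit4, Cdkn1a, Gadd45g and Plk3 were members. Of 30 glucocorticoid-responsive genes, 16 were called higher and none lower, of which 8 were members, namely Tob2, Ddit4, Fkbp5, Ctgf, Nfkbia, Pdk4, Arrdc2 and Cdkn1a, and 3 were also in the Chd4 table. Among the glucocorticoid genes outside the members, Tsc22d3, a leucine zipper gene induced by the hormone, had 6.65, 6.58, 6.83 and 6.93 log2 CPM in rotarod libraries, against 6.03, 6.25, 6.58 and 6.31 in rest libraries. The lowest rotarod library, 4, was hardly above the highest rest library, 5. Of 30 secreted factor and matrix regulator genes, 5 were called higher, all of them members, namely Cyr61, Fst, Ctgf, Edn1 and Bdnf. Of 19 circadian clock genes 3 were called higher, and of 23 heat shock and chaperone genes 9 were, with no member among either, because each was in the Chd4 table, under the limit of 0.5 or left out by name.

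Markers of other cells gave the following values beside these genes. Of 20 vascular genes, Apold1 and the receptor gene Flt1 were called higher and 18 were not listed, and the summed level of the listed ones was 59.3 to 74.6 CPM in rotarod libraries and 38.4 to 59.5 CPM in rest libraries. Of 15 meningeal and fibroblast genes, 4 were called lower and none higher, and the summed level of these 4 was 77.3 to 99.7 CPM in rotarod libraries and 109 to 140 CPM in rest libraries. Both sums hold only genes called different, the member Apold1 among them. They therefore do not measure the amount of vessels or meninges. The unipolar brush cell marker Eomes was called higher, the astrocyte gene Sox9 and the granule neuron gene Cbln1 were called lower, and no microglia, choroid plexus, oligodendrocyte, Purkinje cell or inhibitory interneuron marker was listed. The part of vessels or meninges in the values of members such as Apold1, Edn1, Cyr61 and Ctgf was not tested.

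Sync-TRAP isolates ribosome-bound RNA from labelled neurons, here in cerebella at postnatal day 12. None of the 116 members was among the 38 genes listed by the authors for pull-down from cKO against pull-down from WT (0.147% of about 25800 features tested), nor among the 51 listed for pull-down against input in WT (0.195% of about 26200). At shares this small a count of 0 is not a result about the members, which have no value in those tables.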

How the data were processed

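Polyadenylated RNA of 4 rotarod-trained and 4 rest WT cerebella was measured by sequencing. The authors deposited log2 CPM per library with a prior count, and p-values and adjusted p-values of their own test, per the file headers. The submitters' processing notes name Bowtie, mm9 and edgeR, without versions. The deposited table lists genes with an adjusted p under 0.05, so no count model could be run and unlisted genes have no value. Repeated lines (5 in the rotarod table, 49 in the Chd4 table) were removed. The lowest deposited value, -2.95, is that of 0 reads. With it removed, low values (under about 22 reads) were whole multiples of 1 read in 100% of cases, at a tolerance of 0.1 read. This gave 13.7 to 16.7 M effective reads per library, and whole reads were used for depth and for genes of few reads. Intervals cover counting error only, and the floor of 3 reads covers that of the rest group alone. The choice of members on the same contrast favours high ratios, so the intervals are no test. Recovery of depth and of a known difference between groups was checked on simulated data. The steps of the selection rule were not checked in this way. Means, SDs, SEs and medians were computed in Python 3.11.15 with pandas 2.3.3 and numpy 2.4.6, and no test was run on the members, whose choice used the same values. Members, gene lists and role groups were chosen with earlier results of these data known. Named genes were the 12 members with the largest difference at or above the members' median level, the 4 largest below it, up to 8 members per role list, members of cell type lists, the 3 just inside and just outside the limit, and the 3 of highest level. Other genes named in the role groups were chosen after their values were seen. The identifiers of all 116 members matched the reference gene table. The values of 1 member and of the marker list it belongs to are not reported here.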

Additional observations from a re-analysis of the deposited data

Results flagged for a closer look

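In 5 groups of 4 libraries, 1 library of a named gene stood far from the others, by a gap that made up most of the group's range. Chance flags about 1 in 20 groups, and 38 named genes with 2 groups each were examined. Among the rotarod libraries, Ahdc1 was 7.81 log2 CPM in library 4, against 7.66 to 7.67 in the others. Tle3 was 7.83 log2 CPM in rotarod library 3, against 7.63 to 7.65 in the others. Among the rest libraries, Capn11 was -0.46 log2 CPM in library 1, against 0.18 to 0.23. Nfkbia was 4.70 log2 CPM in rest library 6, against 4.09 to 4.18, and Ctgf was 2.84 log2 CPM in the same library, against 1.79 to 1.92.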

How the results depend on the processing

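The number of members followed the limit on the difference, with 38 at a limit of 1 and 258 at 0.25, beside 116 at 0.5. The median difference then was 1.21 and 0.45, beside 0.86, and groups did not overlap in 32 and 219, beside 101. A pseudocount of 1 CPM gave 94 members and a median of 0.61. Group medians gave 114 members, the authors' deposited log2 fold change 124, a limit of 0.01 on the adjusted p of the authors' deposited table left 90, a mean of at least 1 CPM 96, and keeping the excluded families 133. Leaving out 1 library at a time gave 111 to 122 members, a median difference of 0.81 to 0.91 and 101 to 109 members without overlap. Columns 1 to 4 alone gave 117 members, 108 of them shared, and columns 5 to 8 alone gave 111, 97 shared. The column sets, and the read ratios without 1 rotarod library, were chosen after the data were seen. None of these settings turned the direction of a named gene. With 4 libraries per group, leaving out 1 cannot move a difference by more than 1 SD within the groups. That limit therefore says nothing about how firm a named gene is. With 1 library left out, Capn11 ranged from 1.57, without rotarod library 3, to 3.21. Depending on the library left out, 1 to 7 members fell under 0.5, the lowest being Hmcn1 at 0.39 without rest library 5. Named genes among them were Irs2 at 0.41 without rest library 2, and Ppp1r13l at 0.43 and Plk3 at 0.498 without rotarod library 4. Polr3e was at 0.47 without rotarod library 3, and Cdkn1a at 0.497 without rest library 1. A pseudocount of 1 CPM moved 8 of 38 named genes by more than 1 SD, the authors' fold change 2, and each set of columns 5. No paired analysis was possible because the columns carry no replicate number of the labels, and a set of columns holds 2 libraries of each group with nothing to pair them. Depth limits the 18 members with under 100 reads, whose log2 differences depend on the prior count.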
